A study of Mus musculus with 9 samples.

Results

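The genes described here are those whose RNA was higher in mouse epididymis lacking Mst1 and Mst2 and lower again in epididymis that lacked Yap as well. A gene was a member if its mean in the double knockout (dKO) was at least 2 FPKM and its mean log2(FPKM + 1) in dKO was at least 0.5 above that of wild type (WT), a difference called the rise below. All 3 dKO libraries had to lie above all 3 WT and all 3 triple knockout (tKO) libraries, and the difference between dKO and tKO had to be at least 50% of the rise. Of 17140 genes with a value, 10191 had the required dKO mean, 815 of those the required rise, 561 of those every dKO library above WT, 288 of those every dKO library above tKO, and 252 the required return. The rule set aside 13 of the 252 whose symbols start with Crisp, Wfdc, Defb, Mt, Igfbp or Amot, among them Amot, Amotl2, Crisp1, Mt1 and Mt2, which left 239 members. The levels in the 3 groups chose the members, so their differences between groups are a description and carry no test.

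RNA came from the initial segment, the first stretch of the epididymal duct, of C57BL/6 mice at 4 weeks of age. It was sequenced after oligo(dT) selection in 9 libraries, of which 3 were WT, 3 were Mst1/2 dKO and 3 were tKO, labelled Mst1/2; Yap. The official symbols are Stk4 for Mst1, Stk3 for Mst2 and Yap1 for Yap, and tKO is labelled as lacking Yap in addition to both kinases. The labels name no Cre line, no alleles of the controls and no animal of origin, so the cells in which the genes were deleted are not known here, and the p-values measure only how far the libraries spread, which may be technical. In tissue RNA, fewer cells of a type and less RNA per cell cannot be told apart.

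MST1 and MST2 are kinases at the top of the Hippo pathway. With their partners they switch on the LATS kinases, which phosphorylate YAP and its relative TAZ and keep them out of the nucleus. In the nucleus YAP works through TEAD factors on genes of growth, adhesion and the actin cytoskeleton. The initial segment is lined mainly by tall principal cells, which depend on factors arriving from the testis.

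The libraries carried the marks of their labels. Transcripts lacking a pair of neighbouring Stk4 exons made up 0% of the forms with and without that pair in each WT library, 59.4 to 68.6% in dKO and 58.7, 58.0 and 24.5% in tKO-1, tKO-2 and tKO-3. For a pair of Stk3 exons the shares were 0% in WT, 48.5 to 60.9% in dKO but 36.8 to 42.2% in tKO. Yap1 stood at 23.2 to 26.9 FPKM in WT, 25.2 to 27.9 in dKO but 8.33 to 8.86 in tKO, and was lower in tKO than in dKO by a log2 difference of -1.51 (SE 0.0904, limma adjusted p = 2.04e-04). Every dKO and tKO library thus still held Stk4 and Stk3 transcripts with those exons. For both genes the share lacking them was smaller in every tKO library than in every dKO library, for Stk4 by little in tKO-1 and tKO-2. The form with the Stk3 exons overlapped, at 2.67 to 4.28 FPKM in dKO and 4.08 to 4.23 in tKO. That with the Stk4 exons was at 2.86 to 3.19 FPKM in dKO and 3.38 to 7.35 in tKO, highest in tKO-3. Thus tKO differed from dKO in these shares for Mst1 and Mst2 as well as in Yap1. The part of that in the members' return was not tested. Initial segment genes were present, with the lipocalin gene Lcn8 at 3675 to 5470 FPKM in WT, 710.2 to 921 in dKO but 2365 to 3019 in tKO.

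As a set, the members held a larger part of the measured RNA in dKO than in the other groups, which is what the rule asked for. Their summed values were 2.97 to 3.83% of the summed FPKM of all genes in WT, 6.37 to 6.79% in dKO but 3.06 to 3.47% in tKO. The 3 members with the highest dKO means, Clu, Glul and Itm2b, made up 47.2% of the members' summed dKO means. The median rise was 0.74 on the log2 scale, with quartiles of 0.60 and 0.96, and 52 members had a rise of at least 1. For comparison, all 12097 genes tested had a median difference of 0.03 between dKO and WT. The members were not unusual in their WT level, with a median WT mean of 6.30 FPKM against 6.91 for all genes tested. Among the 12097 genes tested, 1850 had every dKO library above every WT library and 1210 had every dKO library above every tKO library.

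**Figure D1:**
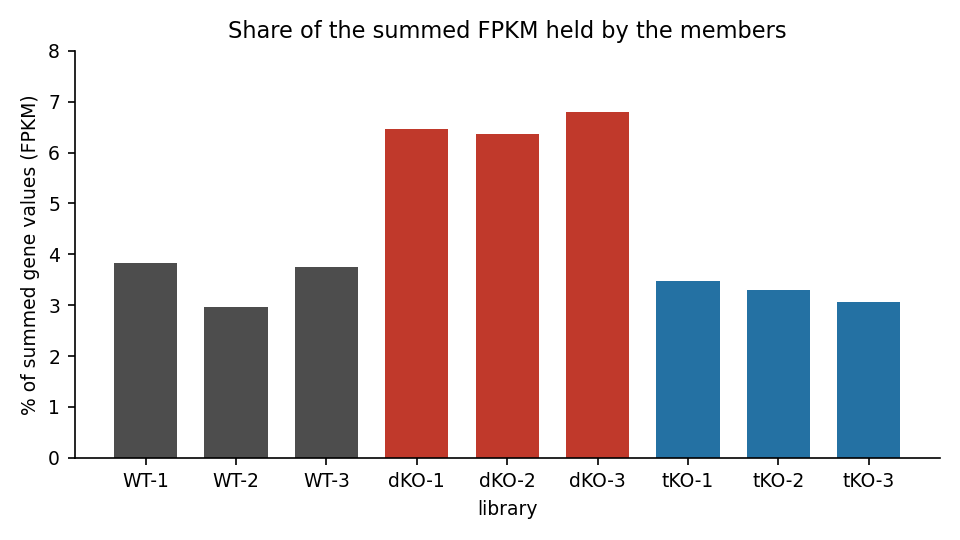
Bars give, for each of the 9 libraries, the summed FPKM of the 239 members as a percent of the summed FPKM of all genes with a value. The 3 dKO libraries stand between 6.37 and 6.79% and the other 6 libraries between 2.97 and 3.83%.

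The return was often complete. The median return in tKO was 91.7% of the rise, so that the tKO mean of a typical member differed from its WT mean by 0.07 on the log2 scale. The return was 50 to 75% in 69 members, 75 to 100% in 73 and over 100% in 97, which is where the tKO mean lay below the WT mean. The tKO and WT libraries overlapped in 212 members. In 9 members every tKO library was below every WT library, which 7.69% of all genes tested also showed, and in 18 every tKO library was above every WT library, against 11.1% of all genes tested. The rule bounds this difference from above, so the counts describe the members only. Over the whole table limma called 0.0827% of genes higher and 0.0827% lower in tKO than in WT.

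**Figure D2:**
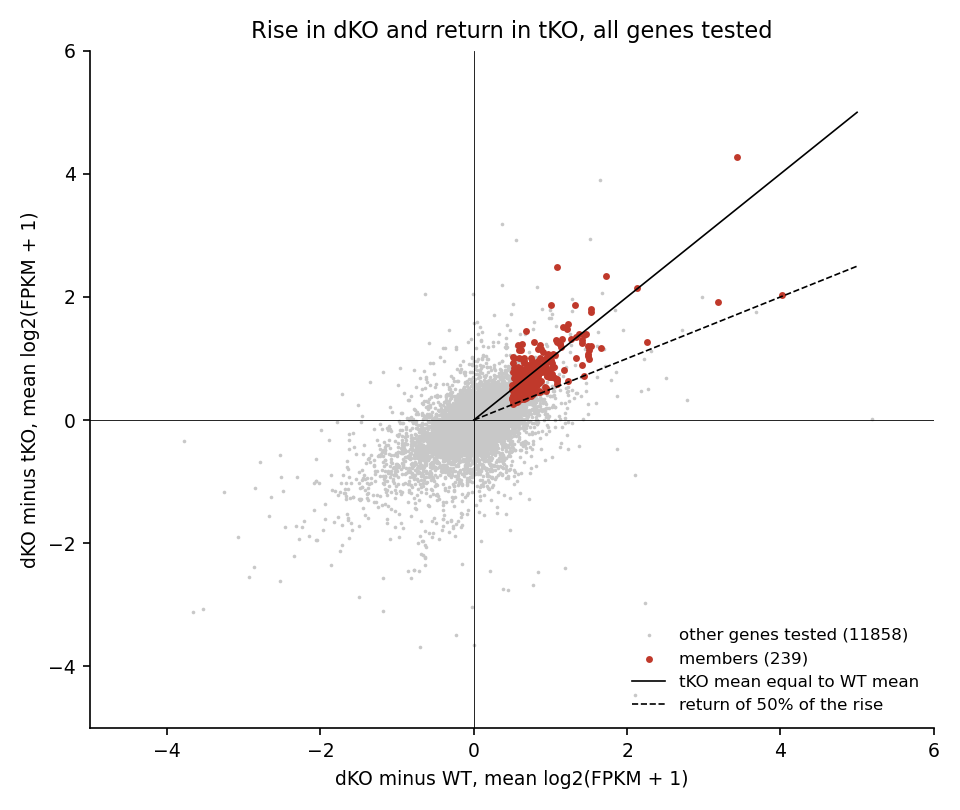
Each point is 1 of the 12097 genes tested, with the mean difference in log2(FPKM + 1) between dKO and WT on the horizontal axis and between dKO and tKO on the vertical axis. The 239 members (red) lie to the right of 0.5 and above the dashed line of a 50% return, by the rule, and scatter around the solid line where tKO equals WT. Grey points in the same area failed the rule on overlap between libraries, on the dKO mean or on the symbol, and 1 gene lies outside the axes.

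Of the members, 4 belong to the Hippo pathway itself or to genes that YAP is known to drive. Ccn1, which encodes a secreted matrix protein and is a standard YAP target, stood at 3.77, 2.62 and 2.60 FPKM in WT, 6.03, 6.73 and 6.83 in dKO and 3.47, 5.26 and 4.01 in tKO. Its dKO mean was 2.18 times its WT mean, and tKO-2 kept the highest level outside dKO. Wwc2, a scaffold protein that helps to activate LATS, stood at 6.59, 5.24 and 4.81 FPKM in WT, 8.44, 8.81 and 8.78 in dKO and 5.87, 5.41 and 5.62 in tKO. The WT and tKO libraries of Wwc2 overlapped and its return was 95.1%. Ptpn21, a tyrosine phosphatase with a FERM domain, had a rise of 0.57 and a return of 86.9%. Nuak2, a kinase of the AMPK family, was at 0.312 to 1.67 FPKM in WT, 1.95 to 2.39 in dKO but 0.667 to 1.58 in tKO by its first exons. By its last exons the difference between dKO and WT was -0.12, so its direction rests on the exon class.

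The promoters of Ccn1 and Wwc2, and of the cytoskeletal members Pls3 and Vcl described below, are shown because they hold the letters GGAATG, the core that TEAD factors are known to bind. Each runs from 250 bases before to 50 bases after the RefSeq gene start in GRCm38.p6, 5′ to 3′ on the strand of the gene, with GGAATG or its reverse complement CATTCC in capitals. Ccn1 is at chr3:145649936-145650235 on the minus strand, Wwc2 at chr8:47990495-47990794 on the minus strand, Pls3 at chrX:75875133-75875432 on the minus strand and Vcl at chr14:20929148-20929447 on the plus strand.
Ccn1: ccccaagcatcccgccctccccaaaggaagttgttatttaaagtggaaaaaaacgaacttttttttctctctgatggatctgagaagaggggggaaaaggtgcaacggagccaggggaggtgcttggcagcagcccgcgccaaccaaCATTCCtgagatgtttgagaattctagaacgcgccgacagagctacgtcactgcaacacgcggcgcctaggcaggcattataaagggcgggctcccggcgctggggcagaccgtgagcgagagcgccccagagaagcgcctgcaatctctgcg
Wwc2: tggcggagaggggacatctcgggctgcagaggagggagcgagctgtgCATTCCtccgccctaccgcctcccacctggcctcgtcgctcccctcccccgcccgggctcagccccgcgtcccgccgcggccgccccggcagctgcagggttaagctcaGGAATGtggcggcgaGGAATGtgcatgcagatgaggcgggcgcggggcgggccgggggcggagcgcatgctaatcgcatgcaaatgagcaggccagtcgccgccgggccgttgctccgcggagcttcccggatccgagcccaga
Pls3: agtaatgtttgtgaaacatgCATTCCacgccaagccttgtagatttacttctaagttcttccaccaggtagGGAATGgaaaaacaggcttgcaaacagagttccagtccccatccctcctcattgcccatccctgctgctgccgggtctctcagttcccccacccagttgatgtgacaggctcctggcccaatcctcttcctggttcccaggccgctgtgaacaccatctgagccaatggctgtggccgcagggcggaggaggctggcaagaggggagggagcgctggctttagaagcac
Vcl: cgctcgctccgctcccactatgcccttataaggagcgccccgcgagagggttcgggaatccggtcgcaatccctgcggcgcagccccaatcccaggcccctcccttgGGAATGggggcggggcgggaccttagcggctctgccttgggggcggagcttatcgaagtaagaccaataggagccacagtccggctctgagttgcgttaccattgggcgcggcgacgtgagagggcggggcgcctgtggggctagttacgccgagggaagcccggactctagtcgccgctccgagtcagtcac
The match began 103 bases before the start in Ccn1 and 143 bases before it in Vcl. Pls3 held 2 matches, 230 and 179 bases before the start, and Wwc2 held 3, at 203, 94 and 79 bases.

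A RefSeq promoter was at hand for 180 of the 239 members. For 135 of the 180 its start lay within 100 bases of the start of the gene's first exon with the highest mean FPKM. The same held for 7286 of 9378 promoters of all genes tested. The other windows lay farther from the first exon that was measured most. GGAATG on either strand was found in 33 of the 180 (18.3%), of which 28 held 1 match, 4 held 2 and Wwc2 alone held 3. Of 9378 promoters of genes tested, 1092 (11.6%) held the letters and 8 held at least 3 matches. The AP-1 letters TGANTCA, on either strand, were found in 11 members (6.11%) and in 409 of all (4.36%), with no condition on overlap with GGAATG. The median GC content was 62.0% in the members' promoters and 61.3% in all. These shares are a description of a short window and were not tested, and a match is neither a binding site nor a cause.

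The rest of the Hippo pathway was read against the fit over all 12097 genes, on a list of 25 tested genes of which Wwc2 is the single member. That is 4.0% of the list, where 1.98% of all genes tested were members. Called higher in dKO than in WT were 2 of the 25, Wwc2 and Wwtr1, and 1.46% of all genes tested were called higher in this comparison. The call of Wwc2 rests on values the rule used and is no evidence, which leaves Wwtr1. Wwtr1, which encodes TAZ, stood at 13.0 to 15.0 FPKM in WT, 18.7 to 19.1 in dKO but 15.4 to 16.6 in tKO, a log2 difference of 0.41 between dKO and WT (SE 0.0876, limma adjusted p = 0.0398). The Hippo list had a median difference of 0.16 between dKO and WT and of -0.16 between tKO and dKO, against 0.03 and 0.02 for all genes tested, and Yap1 was the 1 gene called lower in tKO than in dKO. At an unadjusted p under 0.05, 8 of the 25 were higher and 0 lower in dKO than in WT, Wwc2 among the 8. Between tKO and dKO, 0 were higher and 5 lower in tKO, Yap1 among the 5. The medians and counts of the list were taken with Wwc2 included. Of all genes tested, 9.86% were higher and 8.64% lower in dKO, and 9.37% higher and 7.32% lower in tKO, at that threshold. The call of Wwtr1 was lost without any 1 library other than tKO-3 (adjusted p of 0.0509 to 0.153), with the replicate number as a block (0.106) and under the upper quartile scaling (0.0522).

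Genes that YAP and TAZ are known to drive were read in the same way, on a list of 19 tested genes that holds the members Ccn1 and Nuak2. These are 10.5% of the list, where 1.98% of all genes tested were members. That share rests on 2 genes and was not tested. Ccn1 was the 1 gene past the limma threshold for a higher level in dKO, which the rule had selected it for, and none of the other 17 was called. None of the 19 was called lower in tKO. The medians were 0.23 between dKO and WT and -0.15 between tKO and dKO. At an unadjusted p under 0.05, 6 were higher and 1 lower in dKO than in WT, and 2 were higher and 4 lower in tKO than in dKO. Over all genes tested, 9.86% were higher and 8.64% lower in dKO, and 9.37% were higher and 7.32% lower in tKO, at that threshold. By limma 1.46% of all genes tested were called higher in dKO and 0.868% lower in tKO. The medians and counts of the list include the members Ccn1 and Nuak2, which the rule had selected for both directions.

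Cell adhesion and the cytoskeleton gave 26 members, with a median rise of 0.70 and a median return of 83.4%. Cdhr5, a protocadherin of microvilli, had the largest rise of the group, 1.51. It stood at 10.8, 6.82 and 7.22 FPKM in WT, 26.4, 29.2 and 20.1 in dKO and 14.3, 13.4 and 8.96 in tKO. Cdh3, which encodes P-cadherin, had a rise of 1.02, and Cdh16, a cadherin of kidney tubule and other duct epithelia, a rise of 1.06 with a return of 100%. The keratin genes Krt7, Krt80 and Krt8 had rises of 0.94, 0.96 and 0.51. Krt7 and Krt80 lie 40881 bases apart on chromosome 15, so they are neighbours as well as relatives.

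Members that bind or shape actin included some of the most abundant. Pls3, an actin-bundling protein, was at 163, 145 and 147 FPKM in WT, 231, 261 and 270.4 in dKO and 184, 160.1 and 130.3 in tKO. Vcl encodes vinculin, which ties actin to adhesion sites, and it stood at 27.5, 21.7 and 22.0 FPKM in WT, 37.2, 48.4 and 32.2 in dKO and 28.4, 31.4 and 25.1 in tKO. The highest tKO library of Vcl, tKO-2, lay just under the lowest dKO library. Tpm4, a tropomyosin, was at 44.0 to 60.6 FPKM in WT, 78.6 to 82.5 in dKO but 56.1 to 64.6 in tKO, and Fhl1, a LIM-domain protein, had a rise of 0.96. The actin and adhesion list of 28 tested genes holds the members Tpm4 and Vcl, and had medians of 0.19 between dKO and WT and -0.25 between tKO and dKO. The 2 members are 7.14% of the list, where 1.98% of all genes tested were members. Tpm4 was the 1 gene past the limma threshold for a higher level in dKO, which the rule had selected it for, and none of the other 26 was called. At an unadjusted p under 0.05, 6 of the 28 were higher and 2 lower in dKO than in WT. At that threshold 2 were higher and 10 lower in tKO than in dKO, where no gene of the list was called lower by limma. The medians and counts include the members Tpm4 and Vcl, which the rule had selected. Of all genes tested, 9.86% were higher and 8.64% lower in dKO, and 9.37% higher and 7.32% lower in tKO, at that threshold. By limma 1.46% of all genes tested were called higher in dKO and 0.868% lower in tKO.

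**Figure D3:**
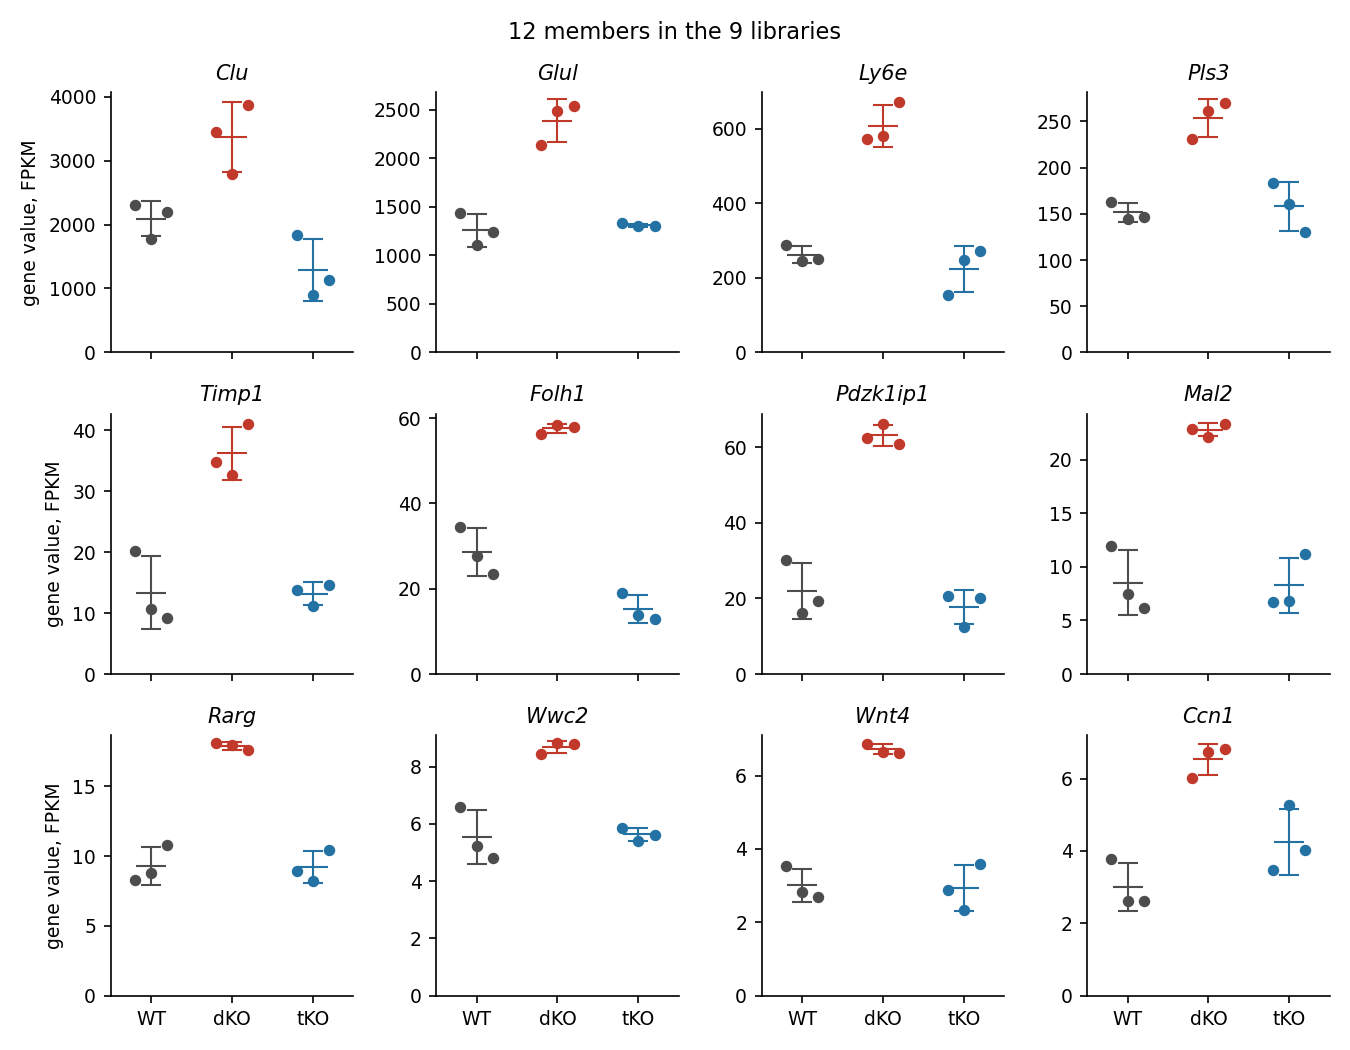
Each panel shows the FPKM of 1 member in the 9 libraries on a linear axis from 0, with points for the libraries in order of their numbers, a bar for the mean and whiskers of 1 SD (n = 3). The 12 members were chosen after their values were seen, to span the function groups and levels; Clu and Folh1 have tKO means below their WT means, and Ccn1 has a tKO mean above.

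Secreted proteins, matrix proteins and proteins of the lysosome gave 18 members, with the largest median rise of the 8 function groups, 1.12, and a median return of 113%. Clu encodes clusterin, a secreted chaperone that is abundant in the epididymis, and it had the highest level of all members. It stood at 2300, 1781 and 2192 FPKM in WT, 3446, 2795 and 3876 in dKO and 1839, 891 and 1137 in tKO. Its tKO mean was 1289 ± 492 FPKM (SD, n = 3) against 2091 ± 274 in WT, and its return was 210%. Timp1, an inhibitor of matrix metalloproteinases, stood at 20.2, 10.6 and 9.25 FPKM in WT, 34.9, 32.7 and 41.1 in dKO and 13.8, 11.2 and 14.7 in tKO. The 3 dKO libraries of Timp1 were clear of the rest, with a gap of 0.67 on the log2 scale.

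Ly6e, a GPI-anchored surface protein, had the widest such gap among members other than predicted genes, 0.99. It stood at 288, 246 and 251 FPKM in WT, 571, 581 and 673 in dKO and 154, 248 and 271 in tKO, so that tKO-1 was lower than any WT library. By its last exons Ly6e was at 191, 99.4 and 242 FPKM in WT and 499, 560 and 277 in dKO. In tKO it was at 148, 240 and 111 by last exons. There dKO-3 lay close to WT-3, so the width of the gap rests on the first exons. The protease inhibitor genes Spink12 and Spink8 were at 403 ± 21.8 and 513 ± 107 FPKM in dKO (SD, n = 3), against 188 ± 64.2 and 262 ± 62.5 in WT and 166 ± 50.04 and 246 ± 78.5 in tKO. Prom1, a membrane protein of cell protrusions, had a return of 62.9%, and Scg5, a chaperone of prohormone convertases, 91.7%. Napsa, an aspartic protease of the lysosome, and Lgals3, a lectin that binds galactosides, had rises of 1.16 and 1.09 and returns of 131 and 116%. Psca, another GPI-anchored protein, was near 0 outside dKO, with 2.11 to 2.25 FPKM in dKO and at most 0.903 in any other library.

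Transport proteins gave 15 members, with a median rise of 0.84 and a median return of 99.6%. Stra6, the receptor that takes up retinol, stood at 8.73, 2.14 and 2.11 FPKM in WT, 19.1, 15.4 and 9.45 in dKO and 3.36, 1.69 and 1.29 in tKO. WT-1 alone of the WT libraries came near the dKO range. Atp6v0e2, a subunit of the proton pump of acidic compartments, was at 16.0 to 25.9 FPKM in WT, 37.1 to 43.7 in dKO but 15.5 to 16.5 in tKO. Abcb5, an ATP-driven exporter, had a rise of 1.49, and the amino acid transporter gene Slc38a4 a rise of 1.26. Slc11a2, an iron transporter, had the largest rise of all, 4.02, but was listed at 0 in WT-3 and tKO-1 while tKO-2 and tKO-3 held 24.5 and 23.3 FPKM, so its size is not a measure of fold.

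Metabolic and detoxifying enzymes gave 24 members, with a median rise of 0.67 and a median return of 104%. Glul, glutamine synthetase, stood at 1439, 1102 and 1237 FPKM in WT, 2134, 2490.1 and 2536 in dKO and 1329.9, 1302 and 1298 in tKO. Its tKO libraries lay inside the WT range. Folh1, a carboxypeptidase that trims folate and glutamate peptides, stood at 34.6, 27.6 and 23.5 FPKM in WT, 56.4, 58.5 and 58.0 in dKO and 19.1, 13.9 and 12.9 in tKO. All 3 tKO libraries of Folh1 were below all 3 WT libraries, and its return was 186%. Ptgs1, which makes prostaglandin precursors, had a rise of 1.51, and the methyltransferase gene Inmt one of 1.23, with dKO-3 at 55.6 FPKM against 23.2 and 26.3 in the other dKO libraries. Fads3, a relative of the fatty acid desaturases, had a rise of 1.09 and a return of 60.9%.

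Signals and receptors gave 28 members, with a median rise of 0.75 and a median return of 84.3%. Among the ligands, Tgfa, a growth factor that binds the EGF receptor, was at 2.80 to 4.73 FPKM in WT, 8.23 to 8.26 in dKO but 3.61 to 4.67 in tKO. Wnt4 was at 2.68 to 3.53 FPKM in WT, 6.62 to 6.87 in dKO but 2.35 to 3.59 in tKO. Wnt7b was at 11.2 to 14.3 FPKM in WT, 20.4 to 23.9 in dKO but 7.13 to 10.2 in tKO. Both Wnt genes encode secreted ligands, and Wnt7b ended below WT in tKO while Wnt4 returned to the WT range.

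Among the receptors, Npy6r, of the neuropeptide Y family, had the largest rise of the group, 2.26. It stood at 8.79, 5.24 and 3.87 FPKM in WT, 29.3, 24.8 and 41.1 in dKO and 9.86, 10.03 and 18.9 in tKO, above WT in every tKO library. Adra2a, an adrenergic receptor, and P2rx7, an ATP-gated channel, had rises of 1.48 and 1.23 and returns of 69.8 and 52.1%. The prolactin receptor gene Prlr, at 1.81 to 2.81 FPKM in dKO, had a return of 213%. Returns over 200% were found in 3 members, Cpne5, Prlr and Clu, named here for that value. Agtr2, a receptor for angiotensin II, was at 2.56 to 5.52 FPKM in WT, 7.45 to 8.98 in dKO but 2.18 to 3.23 in tKO.

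Regulators of transcription and chromatin gave 14 members, with a median rise of 0.79 and a median return of 93.9%. Rarg, a receptor for retinoic acid, stood at 8.28, 8.79 and 10.8 FPKM in WT, 18.1, 17.99 and 17.6 in dKO and 8.93, 8.21 and 10.4 in tKO. Its WT and tKO libraries overlapped and its return was 101%. Smarca1, an ATPase that slides nucleosomes, was at 5.87 to 6.62 FPKM in WT, 14.3 to 14.7 in dKO but 8.58 to 9.79 in tKO, and so kept a level above WT. Tcf7, a factor of the Wnt pathway, had a return of 54.5%, the chromatin subunit gene Smarcd3 68.7% and the HMG-box gene Tox3 109%. Hoxd3, a homeobox factor of axial patterning, was uneven within dKO, at 12.3, 17.9 and 32.6 FPKM, against 7.30 to 10.9 in WT.

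Cell cycle and DNA genes gave 14 members, with a median rise of 0.71 and the lowest median return of the 8 groups, 70.3%. Foxm1, a transcription factor of G2 and mitosis, was at 1.91 to 2.52 FPKM in WT, 4.57 to 6.42 in dKO but 1.44 to 3.48 in tKO by its last exons. By its first exons Foxm1 was at 1.10 to 2.24 FPKM in WT, 2.08 to 4.28 in dKO but 0.913 to 1.83 in tKO. There WT-1 lay above dKO-1, so the separation of Foxm1 rests on the exon class. It shares a deposited locus with the member Nrip2. Hmgb2, a chromatin protein, stood at 15.5 to 27.2 FPKM in WT, 35.9 to 55.2 in dKO but 18.2 to 35.0 in tKO, where tKO-3 nearly reached dKO-1. Cenpa, the histone of the centromere, and Hmmr, a spindle protein, had rises of 0.86 and 0.84 and returns of 101 and 54.6%.

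Genes of mitosis were read from a list of 26 tested genes of G2 and mitosis, of which 2 (7.69%), Cenpa and Hmmr, were members, against 1.98% of all genes tested. By limma 9 of the 26 were called higher in dKO than in WT, where 1.46% of all genes tested were called higher. The 9 were Hmmr, which the rule had selected for it, and 8 of the 24 others, among them Mki67, Top2a and Ccna2. None of the 26 was called lower in tKO than in dKO by limma, where 0.868% of all genes tested were called lower. At an unadjusted p under 0.05, 21 were higher and 0 lower in dKO than in WT, and 0 were higher and 3 lower in tKO than in dKO, against 9.86 and 8.64% and 9.37 and 7.32% of all genes tested. The list had a median difference of 0.74 between dKO and WT and of -0.17 between tKO and dKO. The medians and the unadjusted counts include the members Cenpa and Hmmr, which the rule had selected. Mki67 stood at 7.44 to 8.31 FPKM in WT, 15.7 to 21.8 in dKO but 8.52 to 18.1 in tKO, with tKO-3 the lowest of its group. The count of 9 was 10 without tKO-2, 7 without tKO-3, 5 without WT-1, 4 without dKO-1 or tKO-1, 1 without dKO-2, and 0 without WT-2, WT-3 or dKO-3 or with the replicate number as a block. On an S phase list of 20 tested genes none was called in either comparison by limma, and at an unadjusted p under 0.05 8 were higher and 0 lower in dKO than in WT, and 0 were higher and 0 lower in tKO than in dKO.

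**Figure D4:**
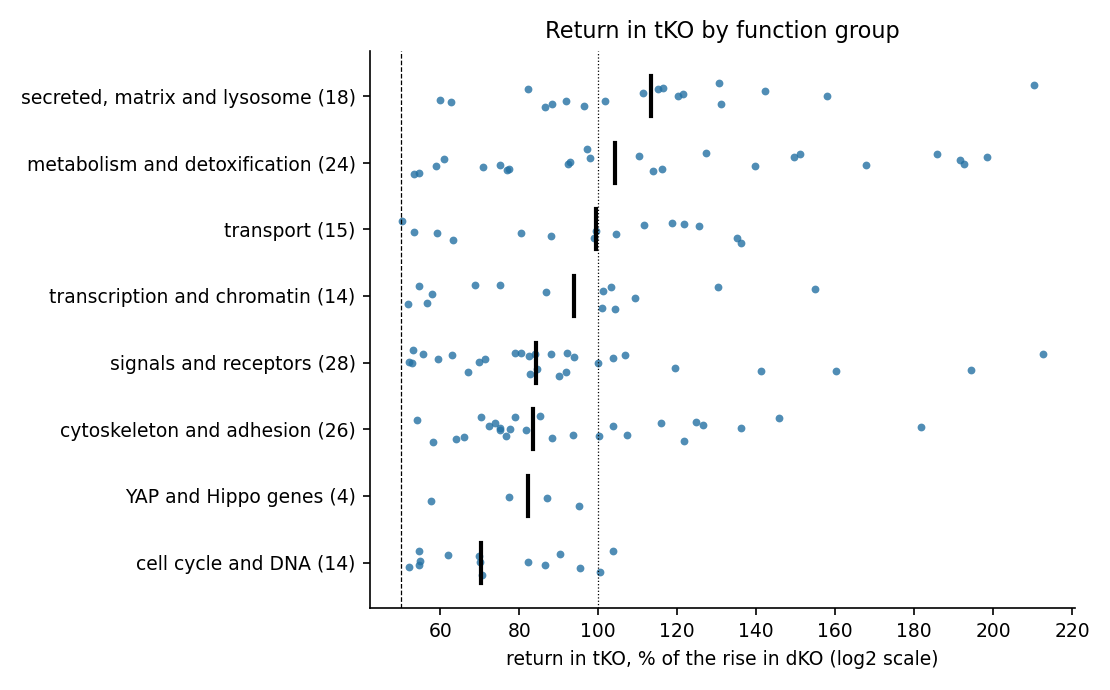
Each point is 1 member in 1 of 8 function groups, placed by its return in tKO as a percent of its rise in dKO on the log2 scale, with the group's median as a black bar and its number of members in brackets. The dashed line marks the 50% that the rule required and the dotted line 100%; group medians run from 70.3% for cell cycle and DNA to 113% for secreted, matrix and lysosome.

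Members that ended on one side of WT are named after their values were seen. Among the 9 with every tKO library below WT, besides Folh1, Wnt7b and Prlr, was Ctsl, which encodes cathepsin L, at 203 to 219.6 FPKM in WT, 248 to 348 in dKO but 138 to 202.1 in tKO. Gpx8, a peroxidase of the endoplasmic reticulum, was at 43.9 to 58.2 FPKM in WT, 66.9 to 72.9 in dKO but 31.6 to 35.8 in tKO. P2rx2, an ATP-gated channel, was at 7.15 to 8.79 FPKM in WT, 9.66 to 14.6 in dKO but 4.57 to 5.33 in tKO. Among the 18 with every tKO library above WT, besides Npy6r, P2rx7, Smarca1, Tcf7 and Hmmr, was Trpv4, a calcium channel that senses osmotic and mechanical change, at 1.90 to 2.19 FPKM in WT, 3.88 to 5.25 in dKO but 2.35 to 3.53 in tKO. P2rx2 and P2rx7 are relatives that ended on opposite sides of WT.

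Several members outside these groups stood out by their gap or level. Pdzk1ip1, a small membrane protein of epithelia, stood at 30.2, 16.1 and 19.4 FPKM in WT, 62.4, 66.2 and 60.7 in dKO and 20.5, 12.4 and 20.01 in tKO. Mal2, which takes part in transport to the apical membrane, was at 6.17 to 11.9 FPKM in WT, 22.1 to 23.3 in dKO but 6.74 to 11.2 in tKO. The dKO libraries of both were tightly grouped and far from the rest. Doc2b, a calcium sensor of vesicle release, and Rab44, a large GTPase of the Rab family, had rises of 1.34 and 1.52. Veph1 was at 0.327 to 1.58 FPKM in WT, 4.37 to 5.20 in dKO but 1.11 to 1.99 in tKO. Itm2b, a membrane protein, was split within its groups, at 515, 438 and 1780 FPKM in WT, 1964, 2401 and 2039 in dKO and 401, 1523 and 410.2 in tKO, so that WT-3 and tKO-2 came near dKO.

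Some members rest on fragile values. Of the 239, 10 were listed at 0 in at least 1 library, and in 4 of these another library of the same group held over 4 FPKM, as for Slc11a2 and for Ifi30, a thiol reductase of the lysosome at 0, 17.3 and 0 FPKM in WT. A dKO mean under 5 FPKM was found for 49 members. Values came from first exons for 178 and from last exons for 61, and 138 met the rule in both exon classes. For 21 members the deposited locus also holds events of another gene, and Map3k14 and 1700028N14Rik overlap and had nearly equal values. Reads of close relatives, such as Gstm5 among the glutathione transferases or Bex2 and Bex4, which lie 70760 bases apart, could not be separated here.

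Genes near each threshold differed little from one another. Predicted genes are left out here, and with them the lowest dKO mean of a member was 2.05 FPKM. Among the others the lowest dKO means inside were Tent5d at 2.10, Pde8b at 2.11 and Als2cl at 2.12 FPKM, and P4htm at 1.93, Pimreg at 1.86 and BC048679 at 1.81 lay just outside. The smallest rises inside were those of Snx8, Plxnb2 and Pitpnm2, all 0.50 when rounded, and Tgif1, Pfas and Tax1bp3 lay just under. The smallest returns inside, as a share of the rise, were 0.502 for Rab11fip2, 0.504 for Slc11a2 and 0.514 for Mlph, and the nearest outside were 0.497 for Fam171a1, 0.496 for Ifnlr1 and 0.487 for Ddah2.

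Exon use was tested as a measure of which forms a gene's RNA took. First-exon shares split the same first-exon values that the rule summed, so they are not independent of it, while the shares of skipped exons come from other events. The share of the main first exon could be tested in 99 member genes, and none was called by limma in either comparison, with smallest adjusted p of 0.835 for dKO versus WT and 0.481 for tKO versus dKO. At an unadjusted p under 0.05 there were 3 and 5 of the 99, or 3.03 and 5.05%, against 4.96 and 5.498% of all 5347 genes, of which 0.0 and 0.187% were called. The inclusion share of skipped exons could be tested for 78 events in 55 member genes, and none was called by limma, with smallest adjusted p of 0.571 and 0.741. An event is a pair of forms with and without an exon. The same or overlapping exons can be in more than 1 event, so events are not all independent. Here 6 and 7 of the 78 had an unadjusted p under 0.05, or 7.69 and 8.97%, against 4.13 and 4.33% of all 4895 events, of which 0.143 and 0.123% were called.

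A few members with wide shifts are named after their values were seen. The main first exon of Rarg held 32.5, 61.8 and 44.7% of its first-exon FPKM in WT, 77.3, 93.2 and 76.2% in dKO and 72.0, 47.4 and 45.1% in tKO. For Evl, a protein that extends actin filaments, the exon at chr12:108683348-108683410 was kept in 98.2, 97.9 and 99.4% in WT, 48.5, 4.19 and 41.6% in dKO and 96.0, 60.7 and 73.0% in tKO. For Lsr, a protein of tricellular junctions, the exon at chr7:30962098-30962244 was kept in 60.8 to 93.5% in WT, 0 to 46.7% in dKO but 90.9 to 91.8% in tKO. In these 3 no dKO library lay inside the range of the other groups. Folh1 differed, since its exon at chr7:86762917-86763042 was kept in 8.93 to 20.7% in WT, 5.47 to 16.7% in dKO and in 40.5, 91.5 and 91.0% in tKO. None of the 4 passed the adjusted threshold. Coordinates are as deposited, and most exon ends match splice sites annotated on GRCm38.

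Of the 239 members, 18 (7.53%) were on chromosome X, against 388 of 12097 genes tested (3.21%). Timp1, Pls3, Fhl1, Smarca1 and Irak1 are among those 18. Rab44 and Cpne5 lie 6576 bases apart on chromosome 17. None of these positions was tested.

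Other features of the libraries moved with the members. WT-1 was the highest WT library for 164 of the 239 members (68.6%), against 36.1% of all genes tested, and Crisp1, a gene of later segments, was at 351 FPKM in WT-1 against 83.5 and 67.6 in WT-2 and WT-3 and 899 to 1082 in dKO. On a list of 15 tested initial segment genes, 9 were called lower in dKO than in WT and 6 higher in tKO than in dKO, where 2.35 and 1.24% of all genes tested were called in these directions, and the summed FPKM was 11528 to 12182 in WT, 3479 to 5321 in dKO but 7313 to 9854 in tKO. The list of 12 tested caput and later segment genes had 1 gene called higher in dKO, Crisp1, and 2 lower. Its median difference between dKO and WT was -0.46. At an unadjusted p under 0.05, 3 were higher and 7 lower in dKO than in WT. Its summed FPKM was 28873 to 29247 in WT, 21844 to 25773 in dKO but 19116 to 23373 in tKO. Crisp1 thus moved against the median of its list in dKO. On lists for 12 other cell types, none of 69 tested genes was called higher and 5 were called lower in dKO than in WT by limma, 3 were called higher and none lower in tKO than in dKO, and none was a member. The lymphocyte and neutrophil list and the germ cell list had 0 tested genes, so they could give no call. At an unadjusted p under 0.05, 0 of the 69 were higher and 15 lower in dKO than in WT, and 19 were higher and 2 lower in tKO than in dKO, mostly the opposite directions to those of the members. Of all genes tested, 9.86% were higher and 8.64% lower in dKO, and 9.37% higher and 7.32% lower in tKO. The principal cell list of 12 tested genes holds the member Krt8. With Krt8 included, the list's medians were 0.23 between dKO and WT and -0.17 between tKO and dKO. At that threshold, also with Krt8, 4 were higher and 1 lower in dKO, and 3 higher and 4 lower in tKO. Its summed FPKM was 771 to 877 in WT, 868 to 1007 in dKO but 641 to 856 in tKO. Summed FPKM of basal cell markers was 170.0 to 191 in WT, 135 to 148 in dKO but 103 to 146 in tKO, that of smooth muscle markers 805 to 1221, 618 to 784 and 695 to 1063, and lymphocyte and neutrophil markers summed to at most 1.62 in any library. Fibroblast markers had their largest sums in tKO, from 747 to 1282, clear of both dKO (600 to 665) and WT (578 to 721). Ciliated efferent duct markers reached 63.2 to 164 in tKO, which overlapped dKO (51.4 to 70.7) but not WT (48.4 to 61.0). The basal, the narrow and clear cell, and the Schwann and neuron lists went the other way, with every tKO sum below WT. The part of these differences in the members' values was not tested.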

How the data were processed

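The authors deposited 1 table per library with an FPKM for each transcript event, per the file headers: first exons, last exons, skipped or kept exons and others. Per the submitters' processing notes the tools included bcl2fastq 2.17.1.14 and DESeq, in roles that are not stated. The aligner, the genome build and the handling of reads shared between gene copies were not given in the sources used here. Counts were not part of the tables, so depth is unknown and no counting interval can be given. The summed gene values were 245153.5 to 265820.4 FPKM, and 13597 to 15211 genes were above 0 per library.

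Events were placed in GENCODE M21 genes (GRCm38) by splice site, or in the gene the files name if within 5000 bases, which placed at least 97.1% of the FPKM of each class. A gene's value is the sum of its first-exon FPKM, or of its last-exon FPKM where that was larger over the 9 libraries. limma 3.58.1 (R 4.3.3, mean-variance trend) fitted log2(FPKM + 1) of all 9 libraries for the 12097 genes that reached 1 FPKM in 3 or more libraries; differences on this scale understate the change of low genes. Benjamini-Hochberg adjustment ran over all genes tested, and a gene was called at an adjusted p under 0.05. Exon shares were fitted in the same way as percents, where the forms summed to at least 2 FPKM in every library. The code was tested on simulated data. Python 3.11.15, pandas 2.3.3, numpy 2.4.6 and matplotlib 3.10.9 did the rest.

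The members, the 27 gene lists and the tests were chosen with earlier results of these data known, and the 8 function groups, which hold 143 members and leave 96, were assigned by hand afterwards. Named members are the 20 largest rises, the 10 highest dKO means, the 10 widest gaps, those on a list, up to 6 per function group and those next to a threshold, without predicted genes; other genes are Stk3, Stk4, Yap1 and up to 4 per list. Alternatives were other pseudocounts, filters, exon classes, a scaling to the same upper quartile, leaving out each library and a block of replicate numbers.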

Additional observations from a re-analysis of the deposited data

How the results depend on the processing

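The number of members was 180 to 275 under other pseudocounts, minimum levels, minimum returns, exon classes and the upper quartile scaling, and 52 with a rise of at least 1. With genes taken as the files name each locus, an alternative chosen after seeing the data, it was 227, of which 220 were shared. Leaving out 1 library gave 236 to 350, and 135 members remained whichever library was left out. By the exon class that the value does not use, the rise turned to -0.027 for Cpne5, -0.19 for Them7, -0.12 for Nuak2, -0.91 for Impdh2, -1.32 for Msrb3, -0.20 for Ilk and -0.20 for Pard6b (last exons), and to -0.044 for Macc1 (first exons); the cause was not tested.

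The calls over all genes numbered 461 for dKO versus WT (177 higher), 255 for tKO versus dKO (150 higher) and 20 for tKO versus WT (10 higher). Under the upper quartile scaling 177 were higher and 77 lower in tKO than in dKO, with a shift of 0.05 in the median difference. Leaving out 1 library gave 104 to 453, 94 to 320 and 7 to 153 calls. With no filter on low values tKO versus WT had 31. For first-exon shares (0 and 10 calls over all genes) the ranges without 1 library were 0 to 7 and 2 to 21, and at least 5 FPKM gave 1 call for dKO versus WT. For exon inclusion (7 and 6 calls) they were 3 to 17 and 7 to 26, and at least 5 FPKM gave 3 and 2.

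Replicate numbers did not pair the libraries: deviations of same-numbered libraries correlated at -0.106 to 0.010, those of others at -0.083 to 0.121. With the replicate block the calls were 235 for dKO versus WT, 145 for tKO versus dKO and 5 for tKO versus WT, 0 and 1 for first-exon shares and 0 and 1 for exon inclusion. Unknown depth limits low values most.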
